A study of Arabidopsis thaliana with 6 samples.

Results

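Leucine and the other branched-chain amino acids are broken down in plant mitochondria. Measured here were 8 genes of branched-chain amino acid and lysine breakdown and of the electron-transfer chain it feeds. These were IVD, MCCA, MCCB, ALDH6B2, D2HGDH, ETFALPHA, ETFBETA and ETFQO. They were found by gene symbol among 13350 genes named by the 13513 probe sets that name 1 gene, on an ATH1 array of 22810 probe sets, and each of the 8 was measured by 1 probe set. The group was put together with earlier results of the comparison below in view, namely the mean signals of pif1-2 and wild type. The difference between the genotypes is therefore given for these 8 genes as a description, with no test.

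In the breakdown of leucine, a branched-chain keto acid is converted to isovaleryl-CoA, which isovaleryl-CoA dehydrogenase (IVD) oxidises to 3-methylcrotonyl-CoA. Methylcrotonyl-CoA carboxylase, built from the biotin-carrying subunit MCCA and the subunit MCCB, then adds a carboxyl group. IVD and D-2-hydroxyglutarate dehydrogenase (D2HGDH) pass their electrons to the electron-transfer flavoprotein, a dimer of ETFALPHA and ETFBETA, and ETFQO hands them on to ubiquinone of the respiratory chain. In Arabidopsis this route is known for its part in survival during extended darkness, when amino acids serve as a respiratory fuel.

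The seedlings were Arabidopsis thaliana wild type (Col-0) and the mutant pif1-2, which carries the Salk_072677 insertion, with 3 arrays of each. PIF1 belongs to the basic helix-loop-helix transcription factors and interacts with phytochrome. All 6 samples were whole seedlings, plated on MS medium, chilled for 4 days, exposed to light for 1 hour and then grown for 4 days at 21 °C in darkness, so that wild type and mutant shared everything but the genotype per the labels. Only 1 mutant allele was measured, and the labels put PIF1 mRNA in it as very low and wild-type seedlings as about 2 mm taller. In whole seedlings, fewer cells of a type and less RNA per cell cannot be told apart.

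The arrays were comparable in brightness, with median deposited signals of 184.1 to 198.8. On the first principal component (26.9% of the variance) pif1-2 replicate 3 was far from the other arrays, at 47.9 against -13.2 to -5.23, and its actin 3-prime to 5-prime signal ratio was 8.07 against 3.53 to 5.17. On the array of pif1-2 replicate 2 the 25S rRNA control gave a signal of 545.5, against 5877 to 13936 on the others. No probe set was named for PIF1 (0 probe sets) or for the locus AT2G20810 printed in the series title (0 probe sets), so the mutated gene was not analysed here by name and the genotypes rest on the labels. Of the 6 genes listed as etiolated-seedling markers, PORB had a named probe set, and its signal was 8379 to 10714 in wild type and 4898 to 9171 in pif1-2 (log2 difference -0.48, limma unadjusted p = 0.0330, adjusted p = 0.637). The difference was -0.27 without pif1-2 replicate 3, and its unadjusted p then no longer lay under 0.05, nor did it without wild type replicate 2 or pif1-2 replicate 1, with no filter, or with eBayes without trend. Of 6 root markers 4 had one, and their summed signal ranged from 533.6 to 1108 in wild type and from 562.4 to 1018 in pif1-2. The 6 seed storage markers had none. Across all 17695 probe sets tested with limma, 0 were higher and 2 (0.0113%) were lower in pif1-2 at an adjusted p under 0.05, and without adjustment, at a p under 0.05, 585 (3.31%) were higher and 772 (4.36%) lower.

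All 8 genes had a higher mean signal in pif1-2 than in wild type, from 1.14-fold for D2HGDH to 1.71-fold for MCCB. Their log2 differences, pif1-2 minus wild type, ranged from 0.18 to 0.84 with a median of 0.38, beside a median of 0.00095 over all probe sets tested, of which 50.1% had a difference above 0. In 5 of the 8, all 3 pif1-2 arrays lay above all 3 wild-type arrays, which 6.49% of the probe sets tested did, while in 6.58% all 3 lay below. Since the genes were chosen on this contrast, nothing is read from these counts. The differences of MCCB, MCCA, IVD and ALDH6B2 ranged from 0.44 to 0.84, and those of ETFQO, ETFALPHA, ETFBETA and D2HGDH from 0.18 to 0.31. Without pif1-2 replicate 3, the array that lay far from the others, the median of the 8 differences was 0.37, with MCCB at 0.79, IVD at 0.37, ALDH6B2 at 0.46, ETFBETA at 0.27 and ETFQO at 0.37, so that ETFQO and IVD were then close to each other.

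**Figure D1:**
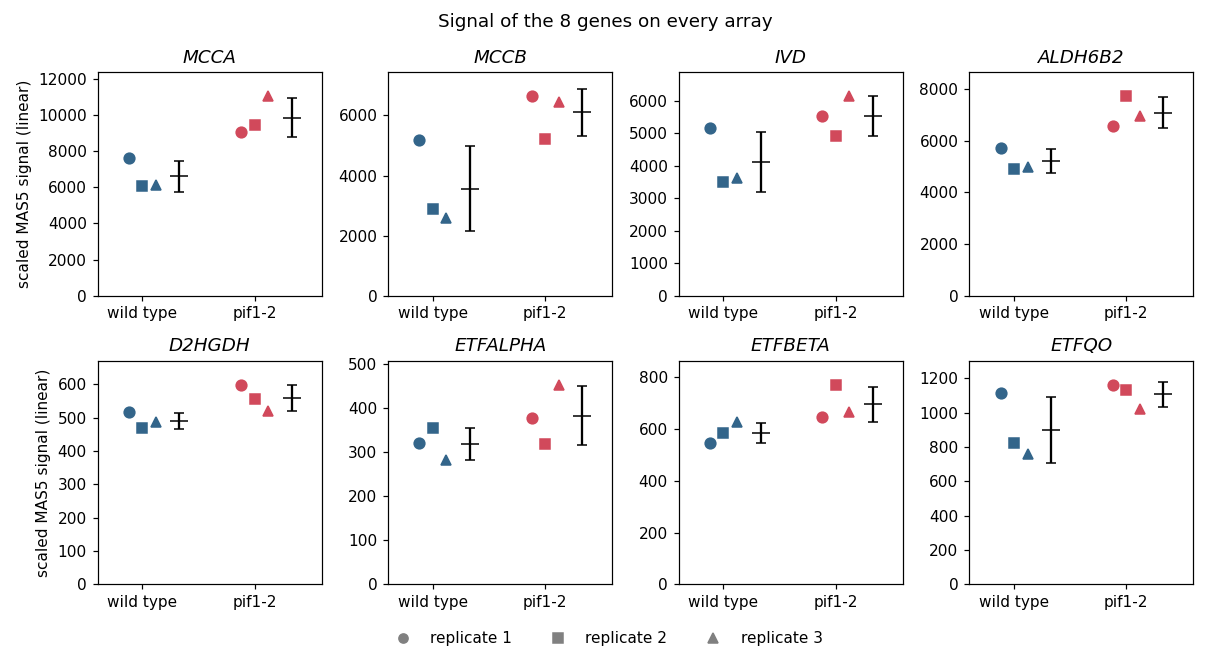
Scaled MAS5 signal (linear axis from 0) of each of the 8 genes on the 3 wild-type and the 3 pif1-2 arrays. Symbols mark the replicate number, and the black bars are the mean and SD of each group (n = 3). MCCA, MCCB, ALDH6B2, D2HGDH and ETFBETA show no overlap between the genotypes, while wild type replicate 1 reaches into the pif1-2 range for IVD and ETFQO.

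The steps specific to leucine are considered first. IVD, the flavin-dependent dehydrogenase at the head of this part of the route, had signals of 5170, 3508 and 3633 on wild-type replicates 1, 2 and 3 and of 5544, 4923 and 6150 on the pif1-2 replicates. One wild-type array, that of replicate 1, lay above the lowest pif1-2 array, so the groups overlapped. Wild type had a mean of 4104 ± 926 and pif1-2 one of 5539 ± 614 (SD, n = 3 in each), so that the log2 difference was 0.45 (SE 0.16). It was 0.63 without wild type replicate 1, and 0.35 when replicate 2 of wild type was left out.

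MCCA, the subunit that holds the biotin of methylcrotonyl-CoA carboxylase, gave signals of 7598, 6063 and 6145 in wild type and of 9042, 9441 and 11067 in pif1-2. Every pif1-2 array was brighter than every wild-type array, and the gap between the nearest arrays was 0.25 on the log2 scale. The group means were 6602 ± 864 and 9850 ± 1072 (log2 difference 0.58, SE 0.14). Without pif1-2 replicate 3 the difference was 0.49.

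MCCB, the partner subunit of MCCA, showed the largest difference of the 8 genes and also the largest spread in wild type. Its signals were 5182, 2896 and 2597 in wild type and 6652, 5214 and 6431 in pif1-2. The groups did not overlap, but only by a gap of 0.0088 on the log2 scale, because wild type replicate 1 came close to pif1-2 replicate 2. Means were 3558 ± 1414 and 6099 ± 774, with a log2 difference of 0.84 (SE 0.22). The coefficient of variation was 39.7% in wild type against 12.7% in pif1-2. Leaving out wild type replicate 1 raised the difference to 1.14, and leaving out wild type replicate 3 lowered it to 0.64.

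ALDH6B2, the methylmalonate semialdehyde dehydrogenase of valine breakdown, was the steadiest of the brighter probe sets. Its signals were 5732, 4896 and 5000 in wild type and 6575, 7735 and 6955 in pif1-2, and the nearest arrays of the groups were 0.20 apart on the log2 scale. The means were 5209 ± 455 and 7088 ± 591 (log2 difference 0.44, SE 0.13). No single array moved it outside 0.38 to 0.51.

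D2HGDH, which oxidises D-2-hydroxyglutarate, had the smallest difference. Signals of 517.2, 468.8 and 486.7 in wild type stood against 599.7, 556.0 and 520.8 in pif1-2. The groups did not overlap, although the highest wild-type and the lowest pif1-2 array were only 0.0096 apart on the log2 scale. Its means were 490.9 ± 24.5 and 558.8 ± 39.5, and its log2 difference of 0.18 (SE 0.14) was close to its standard error. Without pif1-2 replicate 1 it was 0.13, and without pif1-2 replicate 3 it was 0.23.

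The flavoprotein subunits follow. ETFALPHA had signals of 320.0, 354.4 and 281.2 in wild type and of 376.4, 318.99 and 453.1 in pif1-2. The groups overlapped, since pif1-2 replicate 2 lay below both wild type replicates 1 and 2. The means were 318.5 ± 36.7 and 382.8 ± 67.3 (log2 difference 0.25, SE 0.17). This difference rested in good part on pif1-2 replicate 3: it was 0.12 without that array. It was 0.16 without wild type replicate 3, and 0.36 when pif1-2 replicate 2 was left out.

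ETFBETA, the other subunit of the dimer, had signals of 545.1, 581.9 and 624.3 in wild type and of 646.1, 770.0 and 665.4 in pif1-2. All pif1-2 arrays lay above all wild-type arrays, by 0.048 on the log2 scale at the nearest. Its group means were 583.7 ± 39.6 and 693.8 ± 66.7, a log2 difference of 0.24 (SE 0.14). The brightest array was pif1-2 replicate 2, the one on which ETFALPHA was dimmest among the mutants, and without it the ETFBETA difference was 0.17.

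ETFQO, which connects the flavoprotein to ubiquinone, gave signals of 1116, 825.2 and 758.1 in wild type and of 1164, 1134 and 1023 in pif1-2. The pif1-2 arrays were close together, with a coefficient of variation of 6.69% against 21.1% in wild type, and wild type replicate 1 lay among them. The means were 899.6 ± 190 and 1107 ± 74.0 (log2 difference 0.31, SE 0.16). Single wild-type arrays moved it by over 1.5 times, to 0.47 without wild type replicate 1 and to 0.20 when replicate 3 was left out instead.

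**Figure D2:**
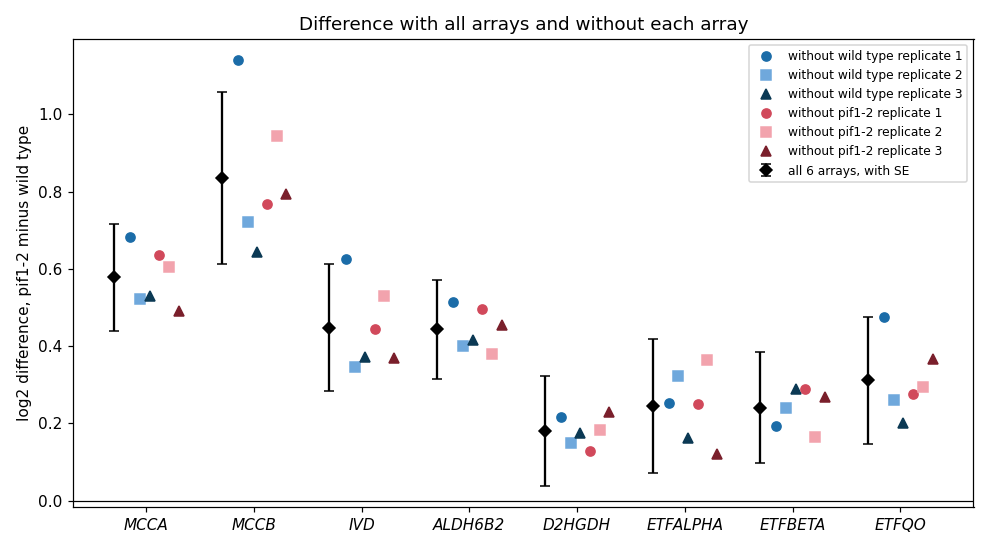
Log2 difference, pif1-2 minus wild type, of each of the 8 genes with all 6 arrays (diamond, bar ± SE) and after each array was left out in turn. All values are above 0. MCCB ranges from 0.64 to 1.14, ETFALPHA from 0.12 to 0.36, and leaving out wild type replicate 1 gives the highest value for MCCA, MCCB, IVD, ALDH6B2 and ETFQO.

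How the genes varied within a genotype was not used to choose them. Among the wild-type arrays, replicate 1 was the brightest for 6 of the 8 genes. Among all probe sets tested it was the brightest of the wild-type arrays for 6016, or 34.0%. Relative to each gene's wild-type mean, it stood 0.61 higher for MCCB, 0.35 for IVD, 0.33 for ETFQO and 0.21 for MCCA on the log2 scale. The exceptions were ETFALPHA, which was highest on replicate 2 (0.15), and ETFBETA, which was highest on replicate 3 (0.096) and lowest on replicate 1 (-0.094). The median of the 8 genes, on the same scale, was 0.18, -0.094 and -0.12 on the wild-type arrays and 0.36, 0.37 and 0.46 on the pif1-2 arrays. Every mutant array thus had a higher median than every wild-type array, which the choice of genes favours. The summed root marker signal was 533.6 on wild type replicate 1, against 977.9 and 1108 on wild type replicates 2 and 3, and 562.4, 1018 and 665.3 on the pif1-2 arrays. Its part in the levels of the 8 genes was not tested. In pif1-2 no array led in this way: replicates 1 and 3 were each the brightest for 3 genes and replicate 2 for 2.

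**Figure D3:**
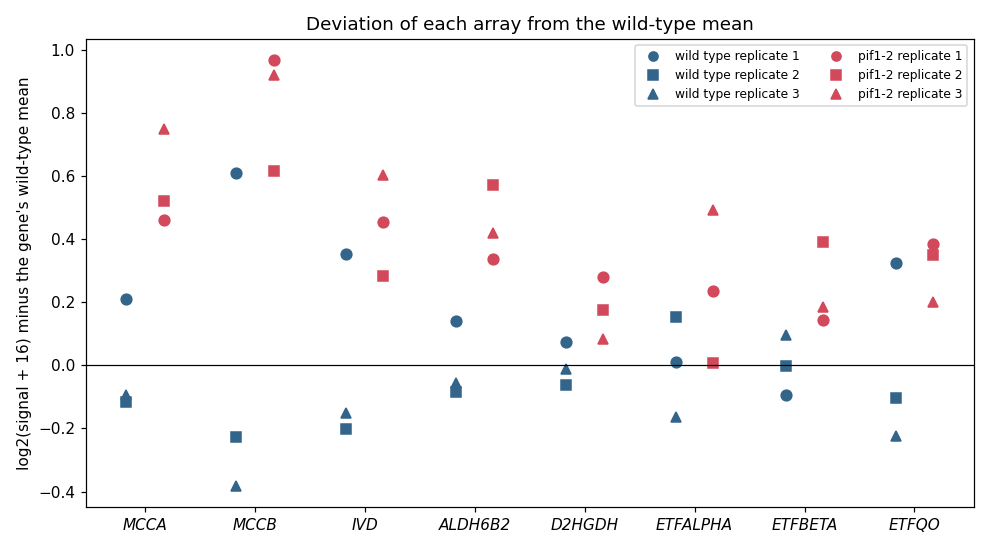
Deviation of each array from the wild-type mean of the gene, in units of log2(signal + 16), for the 3 wild-type arrays (blue) and the 3 pif1-2 arrays (red). The blue circles of wild type replicate 1 lie above the other wild-type arrays for 6 of the 8 genes, by the most for MCCB at 0.61, and below them for ETFBETA at -0.094.

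Pearson correlations of the deviations from the group means, over the 6 arrays, describe which genes went up and down together within a genotype. The 28 pairs share the same arrays and only 4 degrees of freedom, so the values are coarse. Over these pairs r ranged from -0.78 to 0.94, with a median of 0.35 and 18 pairs above 0, beside a median of 0.0060 over all pairs of probe sets tested. The 3 leucine genes went together, with r = 0.94 for MCCB and IVD, 0.89 for MCCA and IVD and 0.75 for MCCA and MCCB. ETFQO was at 0.87 with MCCB, 0.70 with IVD and 0.50 with MCCA, and also at 0.69 with D2HGDH and 0.64 with ALDH6B2. With ETFALPHA and ETFBETA it was at -0.066 and -0.48. The subunits of the flavoprotein dimer ran against each other, with r = -0.70 for ETFALPHA and ETFBETA, and ETFBETA was at -0.78 with MCCB and -0.72 with IVD. Much of this came from 1 array: without wild type replicate 1 the median over the pairs was -0.11, with 11 pairs above 0, whereas without any other array it lay between 0.29 and 0.44. MCCB and IVD were still at 0.69 without wild type replicate 1, but the lowest r among MCCA, MCCB, IVD and ETFQO, a set singled out after its values were seen, fell from 0.50 to -0.88.

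**Figure D4:**
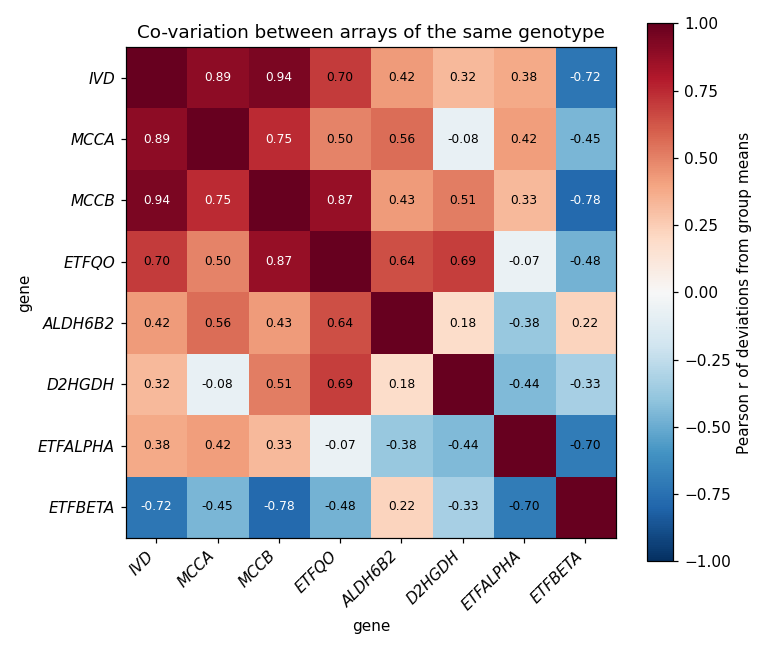
Pearson correlation between each pair of the 8 genes, computed from the deviations of the 6 arrays from their genotype means (colour scale from -1 to 1). IVD, MCCA, MCCB and ETFQO form a block of positive values from 0.50 to 0.94, and ETFBETA is negative with 6 of the other 7 genes, down to -0.78.

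Other enzymes of branched-chain amino acid and lysine breakdown were looked at through a list of 17 genes, of which 8 had a named probe set and all 8 were tested. This list and those of the following paragraphs were chosen by function with earlier results of these data known. Their counts and p-values are therefore no independent test. None of these 8 genes passed the threshold over all probe sets with limma (0 higher, 0 lower). Without adjustment 2 were higher and 0 lower at a p under 0.05, beside 3.31% and 4.36% of all probe sets. These 2 were also the ones whose groups did not overlap, beside 6.49% of all probe sets higher and 6.58% lower without overlap. The count at an unadjusted p under 0.05 was 1 when wild type replicate 2, wild type replicate 3 or pif1-2 replicate 3 was left out. Their median log2 difference was 0.098 with 5 of 8 above 0, beside 0.00095 and 50.1% over all probe sets tested. That median ran from 0.0080 without pif1-2 replicate 1 to 0.19 without wild type replicate 1.

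The gene with the clearest difference on this list was AT4G33150, the bifunctional lysine-ketoglutarate reductase and saccharopine dehydrogenase (LKR/SDH) that opens lysine breakdown. It had signals of 3358, 2448 and 2558 in wild type and of 4013, 4648 and 5405 in pif1-2. The groups were well apart, at means of 2788 ± 497 and 4689 ± 697. The log2 difference was 0.75 (SE 0.16, unadjusted p = 0.000572, limma adjusted p = 0.251), which missed the threshold under every alternative tried (adjusted p from 0.0522 to 0.913). ALDH7B4, an aldehyde dehydrogenase of the same route, had signals of 9379, 7758 and 8312 in wild type and of 10642, 9929 and 12509 in pif1-2. Here too every mutant array was brighter, with a log2 difference of 0.38 (SE 0.13, unadjusted p = 0.0162, limma adjusted p = 0.586).

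The other 6 loci of the list carry no symbol in the tables used here and showed smaller or opposite differences. AT4G31810 was lower on average, with signals of 115.5, 167.9 and 170.2 in wild type and of 102.4, 128.4 and 111.5 in pif1-2. These groups overlapped, and the log2 difference was -0.35 (SE 0.23, limma adjusted p = 0.776). AT5G09300 and AT3G56840 had log2 differences of 0.22 (SE 0.28) and 0.16 (SE 0.15). AT2G26800, AT4G16800 and AT4G20930 were at 0.041, -0.028 and -0.036, each within its standard error.

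Breakdown of other amino acids was represented by 3 tested genes out of 17 listed, and the 3 had a median log2 difference of 0.46. With limma 0 passed over all probe sets, and without adjustment 2 were higher and 0 lower at a p under 0.05, beside 3.31% and 4.36% of all probe sets. None of the 3 had such a p with no filter, with eBayes without trend, or when wild type replicate 2, wild type replicate 3 or pif1-2 replicate 3 was left out, and 1 had it without pif1-2 replicate 1. MGL, the methionine gamma-lyase, had signals of 5820, 3775 and 2950 in wild type and of 5155, 5404 and 7010 in pif1-2. The groups overlapped through wild type replicate 1, and the log2 difference was 0.53 (SE 0.22, limma adjusted p = 0.637). It moved to 0.79 without wild type replicate 1 and to 0.31 when replicate 3 was left out instead. DELTA-OAT, the ornithine aminotransferase, had signals of 952.1, 688.2 and 641.4 in wild type and of 1349, 814.2 and 1023 in pif1-2. Its groups overlapped as well, at a log2 difference of 0.46 (SE 0.20, limma adjusted p = 0.637), which was 0.28 without pif1-2 replicate 1. AT5G38710 was lowest on wild type replicate 1, at 322.1 against 928.6 and 894.7 on the other wild-type arrays, and its log2 difference of 0.31 (SE 0.39, limma adjusted p = 0.898) became -0.17 without that array.

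Genes on which seedlings could draw for carbon in the dark were also covered only in part. ICL, which as isocitrate lyase feeds the glyoxylate cycle, and AIM1, a multifunctional protein of peroxisomal fatty acid breakdown, were the 2 tested of 14 listed, with log2 differences of 0.42 (SE 0.19, limma adjusted p = 0.660) and 0.095 (SE 0.14, limma adjusted p = 0.915). ICL was brightest in wild type on replicate 1, at 12603 against 8147 and 6683, as MCCB, IVD and MGL were, and its difference was 0.68 without that array and 0.22 when wild type replicate 3 was left out. From the list of genes that respond to darkness and sugar starvation 4 of 16 were tested, with a median log2 difference of 0.21. The median was 0.12 with quantile normalization, 0.13 without pif1-2 replicate 1 and 0.14 when wild type replicate 2 was left out. It was 0.30 with array weights and 0.30 without wild type replicate 1. Without adjustment 1 was higher and 0 lower at a p under 0.05, beside 3.31% and 4.36% of all probe sets, and 0 passed with limma. That count was 0 without wild type replicate 2 and 2 when replicate 1 was left out instead. AT1G18460 was at 872.9, 777.8 and 895.4 in wild type and 1118, 1103 and 1126 in pif1-2, without overlap (log2 difference 0.39, SE 0.13, unadjusted p = 0.0130, limma adjusted p = 0.565). AT3G15450 was likewise higher without overlap, as were 6.49% of all probe sets tested. Its log2 difference was 0.20 (SE 0.11), and 0.064 with quantile normalization. AT4G27450 was at 0.22 (SE 0.22), with 0.0013 without pif1-2 replicate 1 and 0.46 when wild type replicate 1 was left out. BZIP53, a basic leucine zipper factor of low-energy signalling, was at -0.081 (SE 0.13).

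The alternative oxidase (AOX) and uncoupling protein genes of the alternative respiration list had no named probe set. Of its 15 genes, 5 were tested. Their median log2 difference was -0.020, 2 were above 0, and 0 were called or had an unadjusted p under 0.05 with limma. The alternative NAD(P)H dehydrogenases NDC1, NDB3, NDB1 and NDB2 were at -0.30 (SE 0.23), -0.23 (SE 0.24), 0.12 (SE 0.20) and 0.14 (SE 0.24). GLDH, which makes ascorbate and hands electrons to cytochrome c, was at -0.020 (SE 0.20). The signs of NDB1 and NDB2 turned without pif1-2 replicate 3 (-0.086 and -0.18), and that of GLDH turned with median centring, quantile normalization, array weights, and without wild type replicate 3 or pif1-2 replicate 3. The sign of the list median turned with median centring (0.0011), quantile normalization (0.0076), array weights (0.019) and without wild type replicate 3 (0.0064). Without pif1-2 replicate 2 the list median was -0.18. Leaving out that array, or wild type replicate 1 instead, put 1 gene of the list lower at an unadjusted p under 0.05 with limma. Of the 11 genes listed for biotin synthesis and biotin enzymes, the cofactor route on which MCCA depends, 0 had a named probe set, and they were not analysed here.

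**Figure D5:**
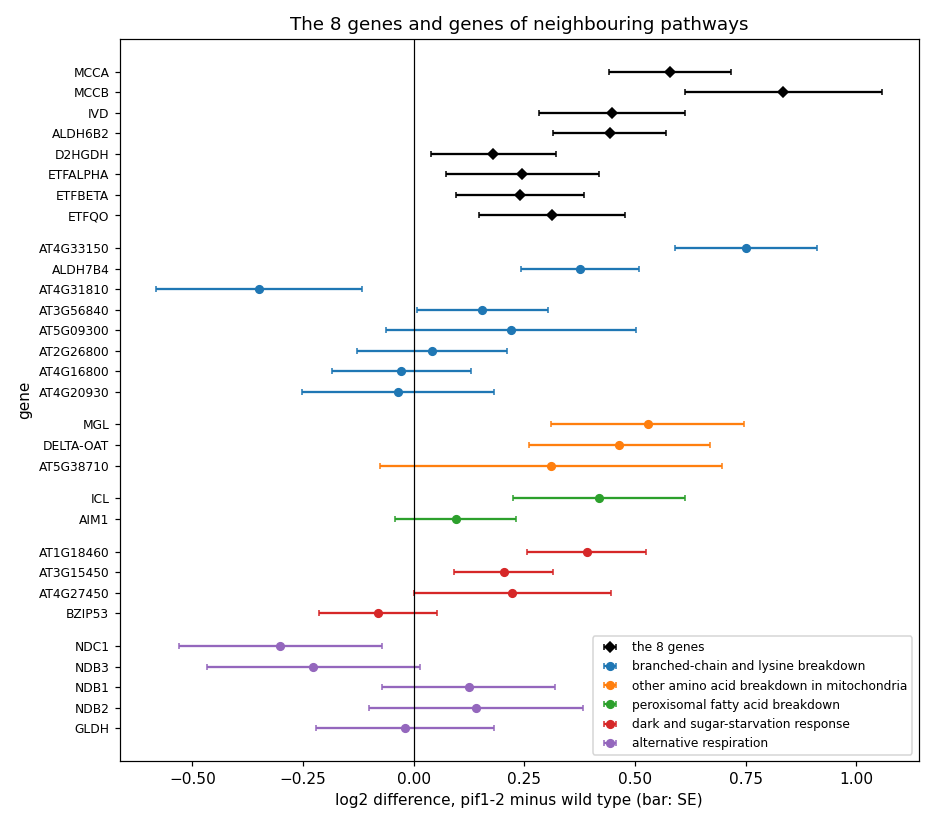
Log2 difference, pif1-2 minus wild type, of the 8 genes (black diamonds) and of the tested genes of 5 neighbouring lists (coloured circles), with bars of ± SE. The 8 genes lie between 0.18 and 0.84. Among the listed genes AT4G33150 has the highest value, at 0.75, and the genes of alternative respiration lie on both sides of 0.

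The genes whose profile over the 6 arrays was most like the mean standardised profile of the 8 genes were AT5G20660, AT4G10030, ATG8B, AT5G23520 and AT5G49710, with Pearson r of 0.99 for each (0.97 or more when any 1 array was left out). Among the probe sets tested, 263 (1.49%) reached an r of 0.9, 79 (0.446%) an r of 0.95 and 14 (0.0791%) an r of 0.98. The mean profile comes from genes chosen on the contrast of the genotypes. A gene picked for its likeness or opposition to that profile therefore carries the contrast by choice. It likewise carries the profile's pattern over the wild-type arrays. Nothing is read from its difference or from where wild type replicate 1 lies. ATG8B, an ATG8 protein of the autophagosome membrane, had signals of 991.1, 857.5 and 830.9 in wild type and of 1186, 1104 and 1226 in pif1-2. Like MCCB it was brightest in wild type on replicate 1 and higher on every mutant array, with a log2 difference of 0.39 (SE 0.14). The profiles most opposed were those of AT2G14880 (r = -0.9987), XTH19 (r = -0.9922) and AT5G35580 (r = -0.9821). XTH19, a xyloglucan endotransglucosylase/hydrolase of the cell wall, had signals of 1599, 2333 and 2181 in wild type and of 1024, 1033 and 1041 in pif1-2, so that wild type replicate 1 was the lowest of its genotype there. Among the 8 genes themselves, r with the mean profile ran from 0.58 for ETFBETA and 0.61 for ETFALPHA to 0.97 for MCCA.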

How the data were processed

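Intensities were analysed as deposited: MAS5 signals on a linear scale, named as such by the submitters' processing notes, with version and settings not given in the sources used here. Scaling by the authors shows in the deposited arrays, whose 2% trimmed means all lay at 500.0. With the 64 control probe sets set aside, signals were rescaled to a 2% trimmed mean of 500, probe sets with a mean signal under 50 were left out (all 8 members passed), and log2(signal + 16) was taken, a scale that understates changes of dim probe sets.

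Groups came from the sample titles. They were compared over 17695 probe sets with limma 3.58.1 in R 4.3.3 (lmFit, eBayes with trend) by a two-sided test with Benjamini-Hochberg adjustment and a threshold of 0.05. SE is limma's moderated standard error. The fit was tested on simulated data. Replicates are called biological, with no word on separate cultures, so that p-values reflect only the spread of these samples. Their number limits the precision.

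Names came from the platform annotation, and loci and symbols from the RefSeq gene table of TAIR10.1. No coordinates, promoters or proteins were used here. Members and lists were chosen with earlier results of these data known. The rule named the members, up to 3 genes per list by smallest p, and the 5 most and 3 least like profiles. Other genes of the lists were chosen after their values were seen. Alternatives covered pseudocount, floor, scaling, filter, variance trend, array weights, replicate block and leaving out each array.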

Additional observations from a re-analysis of the deposited data

How the results depend on the processing

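Over 16 alternatives, each of the 8 genes kept a log2 difference above 0 (128 of 128 values), which the choice of genes favours, and their median ran from 0.33 to 0.49, moving by at most 0.117, beside a pooled SD of 0.122 between the array medians of a genotype. The count of probe sets called, otherwise 2, was 1 with median centring, with quantile normalization, with no filter and with eBayes without trend, 8 with array weights, 45 with the replicate block, and 0 to 7 when 1 array was left out (0 for wild type replicate 2, 7 for wild type replicate 1). Of the 45 called with the block, 11 were higher and 34 lower in pif1-2, and of the 7 without wild type replicate 1, 1 was higher. At an unadjusted p under 0.05 there were 1357 probe sets, against 815 without wild type replicate 2 and 904 when replicate 3 was left out instead. That number was 2003 with the replicate block, 1806 with array weights and 1672 without wild type replicate 1. The median r over pairs of the 8 genes, 0.35, was -0.11 to 0.44 without 1 array, an alternative chosen after seeing the data, as was leaving out arrays for the likeness of profiles. Of the 27 listed genes tested, 10 changed sign under some alternative, and the cause was not tested. GLDH (-0.020 in all arrays) was at 0.0011 with median centring, 0.0076 with quantile normalization and 0.053 with array weights. With array weights EXPA7 (0.17) was also at -0.14, AT5G38710 (0.31) at -0.069 and AT4G20930 (-0.036) at 0.064. Leaving out 1 array gave -0.37 to 0.49 for EXPA7, -0.17 to 0.68 for AT5G38710, -0.23 to 0.20 for AT4G20930, -0.18 to 0.19 for GLDH and -0.29 to 0.19 for GH9C1 (-0.041). It gave -0.13 to 0.069 for AT4G16800 (-0.028), -0.072 to 0.20 for AT2G26800 (0.041), -0.034 to 0.52 for AT5G09300 (0.22), -0.086 to 0.24 for NDB1 (0.12) and -0.18 to 0.34 for NDB2 (0.14). Same-numbered arrays of the genotypes had correlated deviations of 0.25, 0.099 and 0.088 for replicates 1, 2 and 3, and each array correlated best with its own number, a hint from the data only; the block gave none of the listed genes a call. Search of promoters and proteins was not run, and a choice between probe sets did not arise. Probe sets dimmer than the limit of 50 limit what can be said of NDB4, which was not tested.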
